A study of Mus musculus with 20 samples.

Results

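The AP-1 family was followed through the transcriptome of DC2 cells as 10 genes taken by symbol from the 21509 protein-coding genes of both abundance tables: the Fos genes Fos, Fosb, Fosl1 and Fosl2, the Jun genes Jun, Junb and Jund, and their relatives Atf3, Maff and Batf3. Each symbol matched 1 row in each table, and all 10 genes passed the filter on low values in both. DC2 is an immortalized line derived from principal cells of the distal caput, the first segment of the mouse epididymis, and the study asked how such cells respond to fluid shear stress and what their primary cilia contribute. One experiment held 6 flow libraries, from cells kept for 3 h under a shear stress of 1 dyn/cm2, and 6 static libraries, from cells without flow. By the published methods, these cells were in low-serum medium before the flow or static period. The other held 4 libraries of cells transfected with siRNA against Ift88, a gene of the intraflagellar transport that builds cilia, and 4 libraries with control siRNA. Both siRNA groups were under flow by the published methods, although their sample labels do not name it. DC2 is a single immortalized line, and the siRNA against Ift88 was a mixture, so no single siRNA can be read on its own.

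AP-1 is a dimer of basic leucine zipper (bZIP) proteins. Jun proteins pair with each other or with Fos proteins, while Fos proteins need a partner of another family to bind DNA, and the pair recognises a short palindromic site. Fos, Fosb, Jun, Junb and Atf3 are textbook immediate-early genes, switched on in many cell types within minutes of serum, growth factors, stress or mechanical load through kinases that act on factors already in the cell, and Fosl1 and Fosl2 usually follow them. Jund is present in most resting cells. Atf3, Maff and Batf3 carry the same zipper but lack the long activating domains of Fos and Jun.

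Some libraries need naming before the values. The title of flow replicate 6 says flow, as do its description and column name, but its treatment label says static, and the title was followed. The first principal component, with 34.4% of the variance, placed replicates 1 to 3 of both groups at scores from 7.70 to 23.5. Replicates 4 to 6 were at scores from -27.1 to 1.16, so values are also given within these sets. Among them, replicate 4 (-4.59 under flow, 1.16 static) lay between replicates 1 to 3 and replicates 5 and 6 (-27.1 to -14.5). Between 15543 and 16562 genes were above 0 in these 12 libraries, and between 15292 and 16682 in the 8 siRNA libraries. Values are TPM, transcript abundances corrected for gene length and scaled to one total, which hold no read totals, so the depth behind each value is unknown. The label principal cell was not borne out by the defining markers: all 10 markers of epididymal principal cells were under 1 TPM in each of the 20 libraries, among them Crisp1 and Rnase9 at 0 throughout and Aqp9 at no more than 0.413 TPM. Krt18, a keratin of simple epithelia, was at 23.2 to 111 TPM under flow and 28.4 to 71.8 TPM in static cells. Krt8 stayed at or under 1.17 TPM and Epcam at or under 0.332 TPM in all libraries. In such bulk libraries, more cells that make a transcript and more transcript in each cell cannot be told apart.

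The starts of the genes were compared as sequence, because so many members had higher values together. RefSeq windows of 250 bases before to 50 bases after a start were at hand for 9 of the 10 members, on GRCm38.p6. They are shown for Fos, Fosb and Atf3, which had the largest ratios of mean TPM between flow and static cells. Also shown is 1 of the 3 windows of Maff, the only member with an exact match to TGACGTCA, the cAMP response element searched. Each line gives the 250 bases before the start, in the direction of the gene, with every match to a searched motif in capitals.
Fos: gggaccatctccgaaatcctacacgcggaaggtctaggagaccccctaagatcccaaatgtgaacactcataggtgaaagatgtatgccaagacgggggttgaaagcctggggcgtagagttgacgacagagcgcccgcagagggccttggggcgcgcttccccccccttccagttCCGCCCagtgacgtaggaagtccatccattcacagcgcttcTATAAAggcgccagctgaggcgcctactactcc
Fosb: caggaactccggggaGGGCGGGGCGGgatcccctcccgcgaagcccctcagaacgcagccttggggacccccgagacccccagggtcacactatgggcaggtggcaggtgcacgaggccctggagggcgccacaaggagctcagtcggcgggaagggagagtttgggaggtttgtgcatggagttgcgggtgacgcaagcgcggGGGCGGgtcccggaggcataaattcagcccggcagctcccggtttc
Atf3: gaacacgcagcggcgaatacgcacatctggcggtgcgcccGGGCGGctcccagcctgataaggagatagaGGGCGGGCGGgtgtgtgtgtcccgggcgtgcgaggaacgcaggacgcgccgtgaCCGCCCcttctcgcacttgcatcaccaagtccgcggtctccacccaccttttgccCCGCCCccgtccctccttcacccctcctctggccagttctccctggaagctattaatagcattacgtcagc
Maff: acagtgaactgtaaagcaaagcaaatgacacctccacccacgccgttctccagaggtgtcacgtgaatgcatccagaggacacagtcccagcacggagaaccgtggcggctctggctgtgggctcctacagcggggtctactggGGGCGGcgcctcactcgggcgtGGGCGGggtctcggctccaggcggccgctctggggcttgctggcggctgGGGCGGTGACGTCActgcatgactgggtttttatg
The Fos bases are chr12:85473640-85473889 (plus strand), those of Fosb chr7:19310046-19310295 (minus strand), those of Atf3 chr1:191183334-191183583 (minus strand) and those of Maff chr15:79347270-79347519 (plus strand), all on GRCm38. The motifs were searched on both strands. TGANTCA, the AP-1 site, was in none of the 9 members' windows and in 7.81% of all 32851 windows, and the CArG box of serum response factor was in none of them and in 1.63% of all. TGACGTCA, the cAMP response element, was in the Maff window from -29 to -22 before the start. This exact string was in no other member's windows and in 1.79% of all windows. TATAAA was in the windows of Fos, from -33 to -28, and Junb, just after the start that RefSeq gives, against 13.6% of all windows. GGGCGG, the Sp1 box, was in windows of 7 of the 9 members (Atf3, Batf3, Fos, Fosb, Fosl2, Jun and Maff), and in 35.7% of all windows. In the Atf3 and Fosb windows some of the Sp1 boxes overlap one another. A match is only an exact string of letters, and a motif that is absent here can lie outside the window or differ in its letters. The windows of Junb and Jund do not begin at the start of a GENCODE M21 transcript, and theirs are not printed.

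Flow against static asked which AP-1 genes the cells held more of after shear stress. Mean TPM was higher under flow for 9 of the 10 members, by 50.2 times for Fosb, 10.2 times for Fos, 7.59 times for Atf3 and 5.69 times for Junb, and by 1.24 to 2.41 times for Fosl1, Fosl2, Jun, Jund and Maff. Batf3 was at about the same mean. On the log2(TPM + 1) scale the median of the 10 changes was 1.14, against -0.026 over the 11388 genes tested, of which 4415 were higher. A gene was called where the limma adjusted p was under 0.05 and the change exceeded 1.5-fold. By that rule 0 of the 10 members were called, as were 12 of all genes (0.105%), while 9 members had an unadjusted limma p under 0.05, against 438 of all genes. Flow and static libraries of one replicate number deviated together, and with the number as a block 5 members were called higher (Fos, Fosb, Fosl2, Jun and Junb), against 68 genes in all (0.597%). Every flow library lay above every static library for Fosb, Junb and Atf3, an order that 0.492% of all genes had, and 8 members were higher in all 6 same-numbered pairs, as were 1.98% of all genes. With median-of-ratios scaling, Jun and Junb were called among 28 genes.

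Fosb (ENSMUSG00000003545, chr7:19302696-19310051, minus strand) encodes a Fos protein that is scarce in resting cells. It was at 7.32, 4.41, 9.41, 48.3, 175 and 187 TPM in flow replicates 1 to 6 and at 0.743, 0.866, 0.980, 0.876, 4.2 and 0.943 TPM in static replicates 1 to 6. The lowest flow library, replicate 2, stood just above the highest static one, replicate 5, and the groups did not overlap. Its change of 3.76 on the log2(TPM + 1) scale was the largest of all genes tested, with a standard error of 0.81 (limma adjusted p = 0.107), or of 0.56 with the block (limma adjusted p = 0.0122). The 42.4-fold spread among the flow libraries themselves was the widest of the 10 members.

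Fos (ENSMUSG00000021250, chr12:85473890-85477273, plus strand), the archetype of the family and a classical target of serum response factor, was at 3.27, 1.81, 2.02, 24.8, 54.4 and 22.4 TPM in flow replicates 1 to 6. In static replicates 1 to 6 it was at 0.509, 0.336, 0.956, 0.712, 4.68 and 3.51 TPM. The groups overlapped, because flow replicates 1 to 3 were below static replicate 5, yet each flow library was above the static library of its number. Fos changed by a log2 value of 2.13, with a standard error of 0.71 without the block (limma adjusted p = 0.800) and 0.37 with it (limma adjusted p = 0.0292).

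Fosl1 (ENSMUSG00000024912, chr19:5447547-5455946, plus strand), which encodes Fra-1, was far more abundant than Fos in every library. It was at 181, 102, 187, 178, 249.8 and 355 TPM under flow and at 129, 105, 99.1, 59.9, 48.8 and 84.3 TPM in static cells. All flow libraries except replicate 2 lay above all static ones, and in that replicate the flow value was just below its static partner, so that 5 of 6 pairs were higher. Its log2 fold change of 1.22 (standard error 0.28) did not pass without the block (limma adjusted p = 0.136) or with it (limma adjusted p = 0.0832). Ccdc85b overlaps the gene on the opposite strand in the annotation.
Fosl2 (ENSMUSG00000029135, chr5:32135801-32157842, plus strand), which encodes Fra-2, was at 52.0, 30.5, 44.1, 61.9, 125 and 129.9 TPM under flow and at 26.1, 26.3, 28.9, 35.2, 37.1 and 30.5 TPM in static cells. Flow replicate 2 fell among the static libraries and the other 5 stood above them all. On the log2 scale this was 1.06, with a standard error of 0.30 (limma adjusted p = 0.403), or of 0.20 with the block (limma adjusted p = 0.0473).

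Jun (ENSMUSG00000052684, chr4:95049034-95052222, minus strand) is a gene of a single exon whose product pairs with all the Fos proteins. It was at 61.5, 40.7, 55.3, 73.4, 100.5 and 83.8 TPM under flow and at 30.4, 30, 34.1, 30.3, 40.3 and 43.1 TPM in static cells. Flow replicate 2 lay below static replicate 6 and above the other static libraries. The change was small and even, with a log2 fold change of 0.93, and its standard error of 0.18 fell to 0.10 with the block, so that the limma adjusted p went from 0.0714 to 0.00332, the lowest of the 10 members in that fit. Junos, an antisense gene, overlaps Jun.
Junb (ENSMUSG00000052837, chr8:84974484-84978718, minus strand) encodes a Jun protein that is a weaker activator than Jun on many promoters. It was at 124, 91.2, 122, 280.2, 499 and 656 TPM under flow and at 46.5, 47.1, 44.4, 43.7, 61.5 and 68.4 TPM in static cells. The groups did not overlap. Its log2 fold change was 2.11, with a standard error of 0.42 (limma adjusted p = 0.0792), or of 0.27 with the block (limma adjusted p = 0.00643). Prdx2 overlaps the gene on the opposite strand.
Jund (ENSMUSG00000071076, chr8:70698949-70700616, plus strand), the Jun gene of resting cells and also of a single exon, was the most abundant member in all 6 static libraries. It was at 365, 365, 377, 471, 544 and 524 TPM under flow and at 336, 298, 356, 344, 404 and 397 TPM in static cells. Each flow library was above its static partner, but flow replicates 1 to 3 lay below static replicates 5 and 6. A log2 fold change of 0.29 was the smallest of the 9 above 0, with a standard error of 0.12 (limma adjusted p = 0.998), or of 0.06 with the block (limma adjusted p = 0.0581). The antisense gene Gm11175 overlaps it.

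Atf3 (ENSMUSG00000026628, chr1:191170296-191218039, minus strand) encodes a stress-induced factor that represses as a pair with itself and can activate with Jun. It was at 42.3, 31.5, 37.9, 117, 448 and 398 TPM under flow and at 18.4, 23.7, 20.3, 23.1, 28.9 and 27.4 TPM in static cells. The groups did not overlap, with the static libraries within 1.57 times of each other and the flow libraries spread over 14.2 times. Its log2 fold change of 2.07 passed neither without the block, where the standard error was 0.60 (limma adjusted p = 0.444), nor with it, where the error was 0.43 (limma adjusted p = 0.0689). The small RNA Gm24748 lies on the opposite strand within the gene.
Maff (ENSMUSG00000042622, chr15:79346621-79359076, plus strand) encodes a small Maf protein, which has no activating domain and binds DNA with Nrf2 and its relatives. It was at 99.2, 84.5, 91.0, 90.8, 129 and 174 TPM under flow and at 81.2, 77.7, 77.7, 46.4, 50.6 and 106 TPM in static cells. Static replicate 6 stood above flow replicates 1 to 4, and each flow library above its own partner. In log2 terms the change was 0.61, with a standard error of 0.21 (limma adjusted p = 0.862), or of 0.14 with the block (limma adjusted p = 0.113).
Batf3 (ENSMUSG00000026630, chr1:191097847-191108945, plus strand), best known from dendritic cells, was at 3.36, 10.3, 4.16, 3.29, 8.78 and 4.01 TPM under flow and at 5.30, 6.84, 6.38, 2.49, 7.41 and 6.95 TPM in static cells. It was higher in 3 of 6 pairs, and its mean change in log2 was -0.11, with a standard error of 0.28 (limma adjusted p = 0.998), or of 0.16 with the block (limma adjusted p = 0.827).

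**Figure D1:**
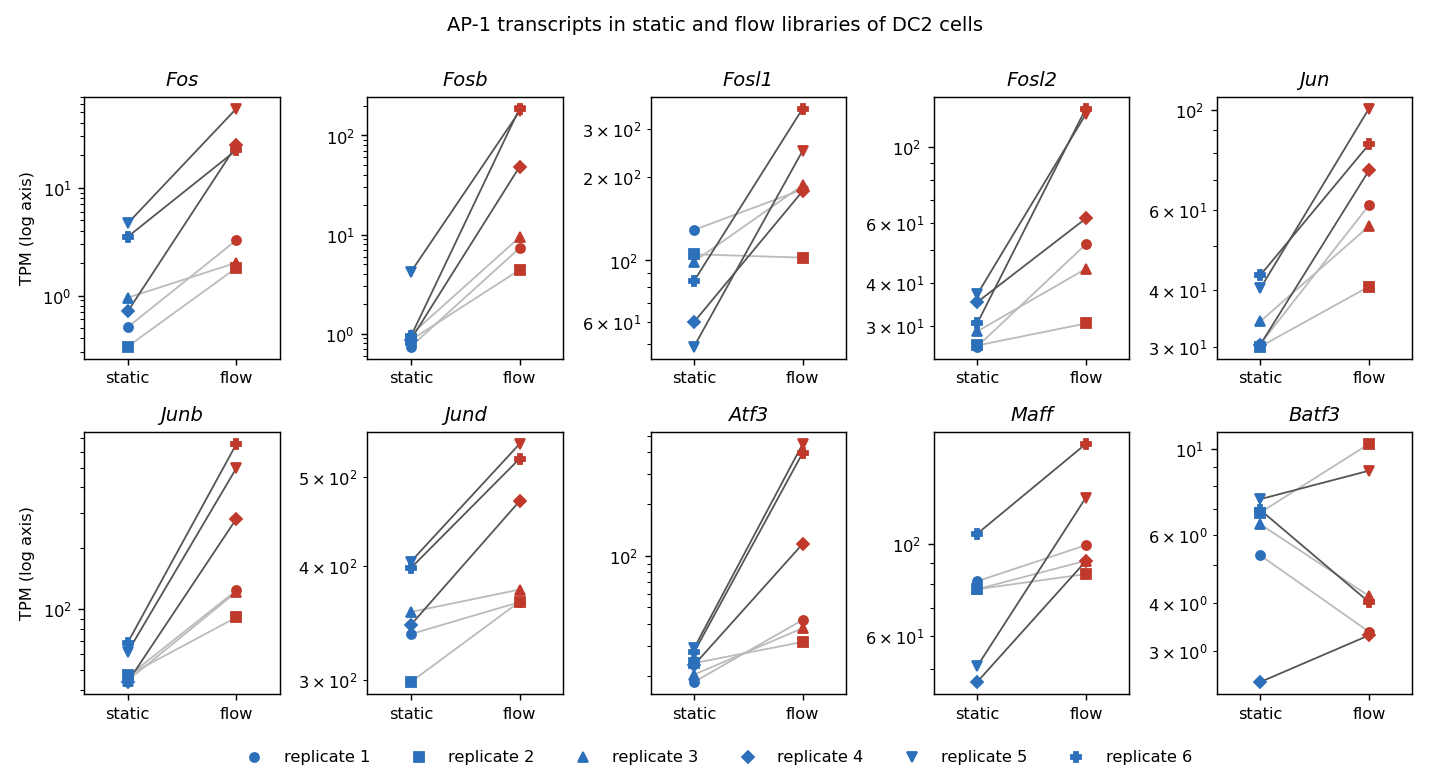
TPM of each AP-1 gene (log axis, 1 panel per gene) in the 6 static and 6 flow libraries, with a line joining libraries of the same replicate number, light for replicates 1 to 3 and dark for 4 to 6. The lines slope upward in all 6 pairs for 8 genes, in 5 for Fosl1 and in 3 for Batf3, and Fosb, Junb and Atf3 have no overlap between the groups.

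The size of the change differed between the sets of replicates. In replicates 1 to 3, flow minus static was 1.54 to 2.39 for Fosb, 0.94 to 1.43 for Junb, 0.62 to 1.5 for Fos and 0.40 to 1.16 for Atf3, in log2(TPM + 1) per pair. In replicates 4 to 6 it was 4.72 to 6.60, 2.65 to 3.24, 2.38 to 3.91 and 2.29 to 3.91 for the same genes. For Fosl1 the sets were at -0.04 to 0.91 and 1.56 to 2.33, for Maff at 0.12 to 0.29 and 0.72 to 1.34, and for Jund at 0.08 to 0.29 and 0.40 to 0.45. The ranges of the sets did not overlap for these 7 genes and overlapped for Jun, Fosl2 and Batf3. How many of all genes have such a split was not counted, and the sets were chosen from these same libraries. The split is therefore not read as a trait of these genes. Within replicates 1 to 3 alone, Fosb (log2 fold change 2.06, limma adjusted p = 0.0482) and Junb (1.26, limma adjusted p = 0.0316) were called, among 5 genes in all (0.0443%). Within replicates 4 to 6 alone, Fos, Fosb, Fosl1, Jun, Junb and Atf3 were called, with log2 fold changes of 3.19, 5.47, 1.98, 1.16, 2.96 and 3.34 and limma adjusted p of 0.00578 to 0.0421, among 56 genes in all (0.49%). The difference between the sets was not tested, since their libraries also stood apart on the first principal component. Among the static libraries, Fosl1 was at 99.1 to 129 TPM in static replicates 1 to 3 and at 48.8 to 84.3 TPM in 4 to 6, the only member whose static range was lower in the second set without overlap.

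**Figure D2:**
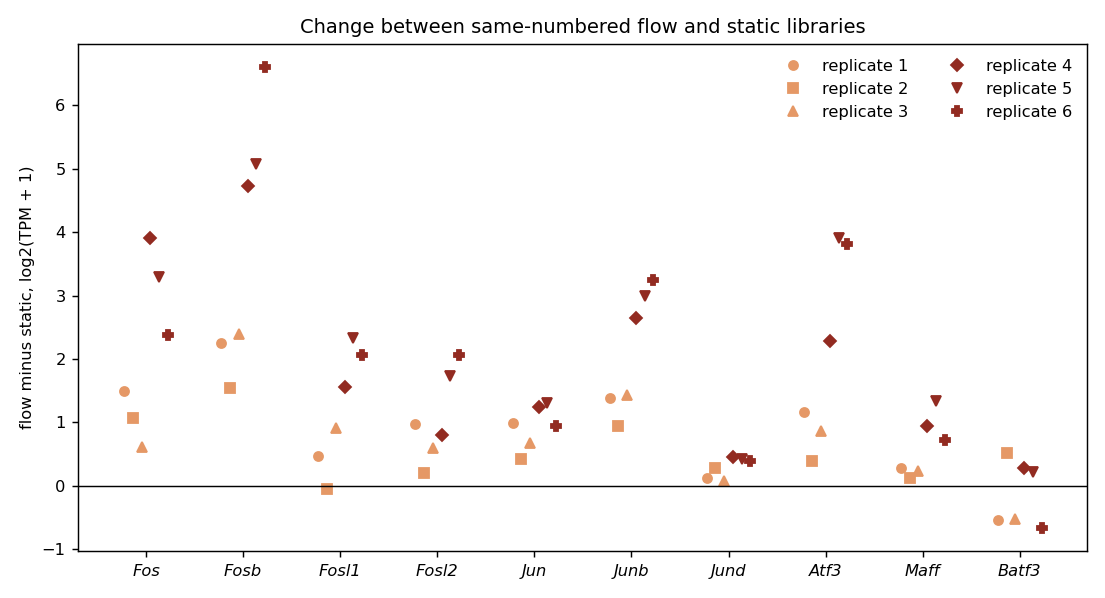
Change of each AP-1 gene between the flow and static library of the same number, as a difference of log2(TPM + 1), 1 point per replicate, light for replicates 1 to 3 and dark for 4 to 6. The dark points lie above all light points for Fos, Fosb, Fosl1, Junb, Jund, Atf3 and Maff.

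Leaving out flow replicate 6, the library with conflicting labels, the log2 fold change was 3.24 for Fosb, 1.89 for Fos, 1.80 for Junb and 1.68 for Atf3, and 0 members were called, as with it. Counted as static, it gave 2.32, 1.42, 1.28 and 1.11 for the same genes, with limma adjusted p of 1.00 for each. Without flow replicate 2, the flow library with the lowest TPM of Fos, Fosb, Fosl1, Fosl2, Jun, Junb, Atf3 and Maff, 5 members were called (Fosb, Fosl1, Fosl2, Jun and Junb) among 87 genes. In the fit with the block, 0 members were called among 8 of 11410 genes without pair 1, and 8 members among 193 of 11362 without pair 2. Over the 6 fits with 1 pair left out, Jun and Junb were each called in 5, Fosb in 4, Fos in 2 and Fosl2 in 1.

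**Figure D3:**
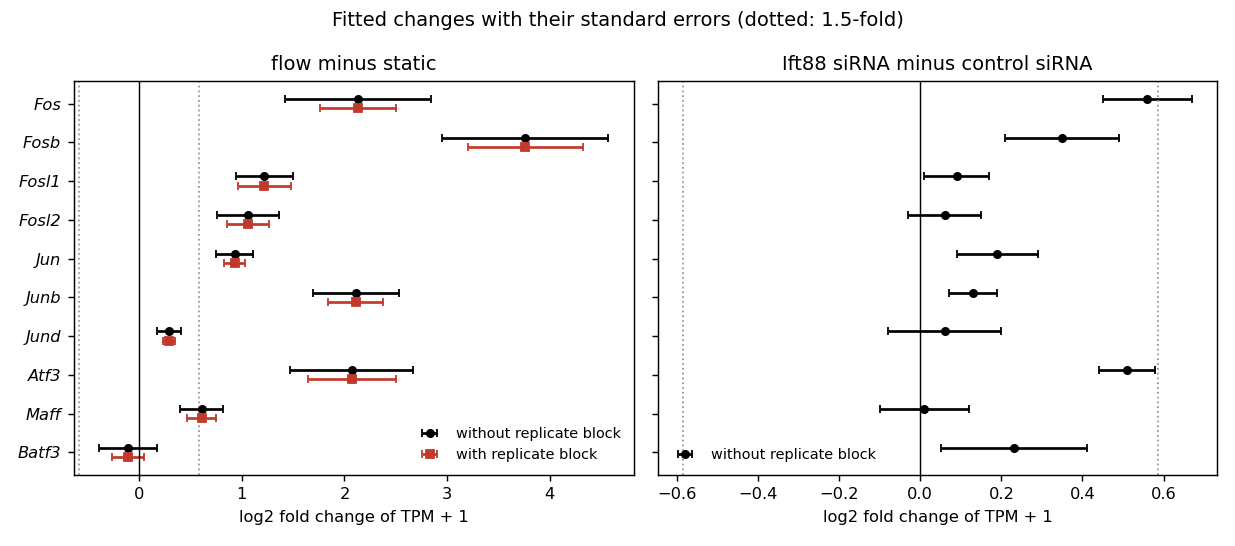
Fitted log2 fold change of TPM + 1 with its standard error for each AP-1 gene, flow minus static on the left (black without the replicate block, red with it) and Ift88 siRNA minus control siRNA on the right, with the 1.5-fold threshold dotted. The block narrows the errors under flow, and with siRNA all changes lie below the threshold, Fos and Atf3 nearest to it.

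TPM are corrected for length, so the members can be ranked by level. In static cells the order of mean TPM was Jund (356 ± 39.7, SD, n = 6), Fosl1 (87.7 ± 29.8), Maff (73.2 ± 21.8), Junb (51.9 ± 10.4), Jun (34.7 ± 5.70), Fosl2 (30.7 ± 4.58), Atf3 (23.6 ± 4.03), Batf3 (5.90 ± 1.81), Fos (1.78 ± 1.84) and Fosb (1.43 ± 1.36). The ranges of neighbours were apart only between Jund and Fosl1, between Junb and Jun, and between Atf3 and Batf3. Under flow the order was Jund (441 ± 82.4, SD, n = 6), Junb (295 ± 234), Fosl1 (209 ± 85.4), Atf3 (179 ± 192), Maff (111 ± 34.5), Fosl2 (73.9 ± 42.8), Fosb (72.0 ± 86.2), Jun (69.2 ± 21.4), Fos (18.1 ± 20.6) and Batf3 (5.65 ± 3.06), with all neighbouring ranges overlapping. This order differed between the replicate sets. In flow replicates 1 to 3 the mean of Fosl1 (157 TPM) was above that of Junb (112 TPM), and Atf3 (37.2 TPM) came after Maff (91.6 TPM), Jun (52.5 TPM) and Fosl2 (42.2 TPM). In flow replicates 4 to 6 Atf3 (321 TPM) came after Jund (513 TPM) and Junb (478 TPM) and before Fosl1 (261 TPM). The summed TPM of the 10 genes was 587 to 768 in static and 762 to 2534 in flow libraries. Jund made up 48.4% to 58.8% of that sum in static cells and 20.7% to 47.9% under flow, so its share was lower in each flow library than in each static one while its own TPM was higher in each pair. The share of Junb was 6.64% to 8.95% in static cells and 12% to 25.9% under flow. Shares of a sum cannot move independently of each other, and no test was made of them.

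**Figure D4:**
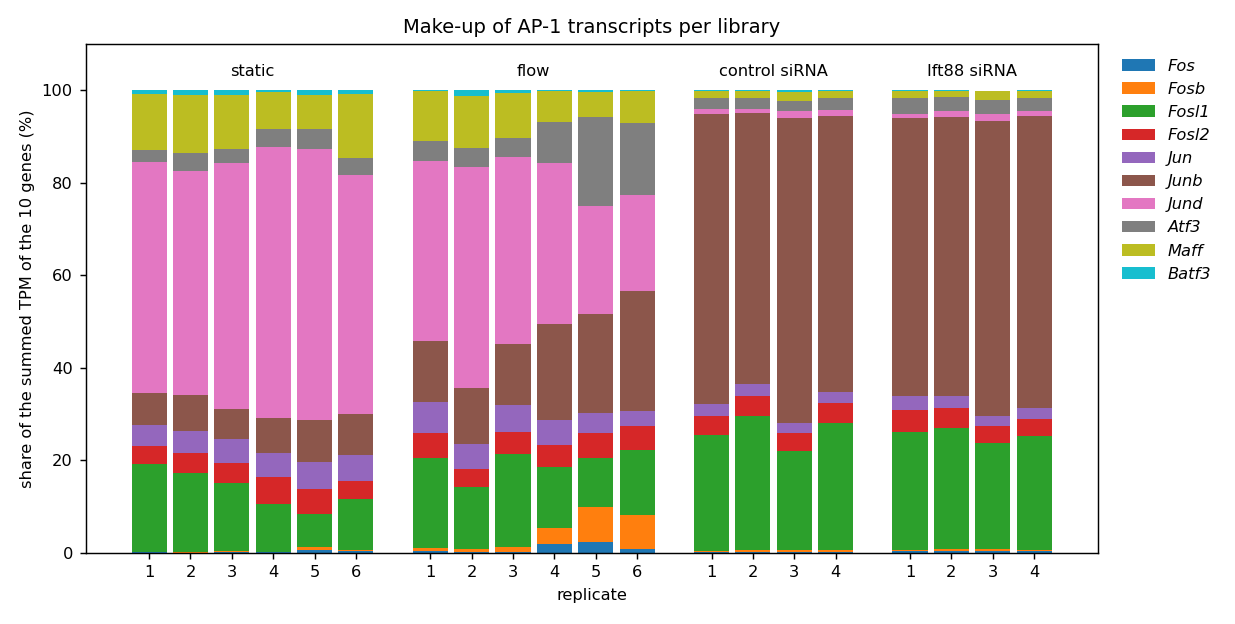
Share of each AP-1 gene in the summed TPM of the 10 genes, 1 stacked bar per library, by group. Jund fills 48.4% to 58.8% of the static bars and 20.7% to 47.9% of the flow bars, and Junb 58.5% to 65.8% of the bars of both siRNA groups.

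The members also varied with one another. Over the 12 flow and static libraries, Pearson's r of log2(TPM + 1) was 0.99 for Fosb with Junb, 0.98 for Fosb with Atf3 and for Fosl2 with Atf3, and 0.97 for Fos with Jund. Fosl1 and Maff were closest to each other (0.88), and Batf3 was between -0.18 and 0.10 with every other member. These correlations are descriptions: the points share the flow contrast and the split between replicate sets. For 9 of the members, the gene most like it among the tested genes outside the family, over the 12 libraries, was Zfp36 for Fosb (r = 0.987), Csrnp1 for Junb (0.993), Egr3 for Atf3 (0.995), Nfil3 for Jun (0.983), Ier5 for Fosl2 (0.993), Irs2 for Fos (0.960), Gdf15 for Jund (0.955), Mdm2 for Maff (0.930) and Uap1l1 for Batf3 (0.960).

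Other genes of the pathway were taken from lists. Of 27 other bZIP genes tested, 20 had a higher mean under flow, with a median log2 fold change of 0.05, and 0 were called (2 at an unadjusted limma p under 0.05). With the block 2 were called: Nfil3, a repressor of the clock and of immune cells, at 14.3 ± 5.15 against 6.97 ± 1.16 TPM (SD, n = 6; log2 fold change 0.88, limma adjusted p = 0.00690), and Mafk, a small Maf like Maff, at 74.8 ± 21.9 against 44.5 ± 5.84 TPM (0.70, limma adjusted p = 0.0426). Of 37 genes of the MAP kinase route to AP-1, 18 were higher and 19 lower, and 0 were called without or with the block (3 at an unadjusted limma p under 0.05). Srf, the serum response factor, was nearest, at 71.2 ± 25.0 against 38.2 ± 2.71 TPM (log2 fold change 0.81, limma adjusted p = 0.161, and 0.0507 with the block).
Of 16 textbook AP-1 targets tested, 14 had a higher mean, with a median log2 fold change of 0.32, 2 were called and 4 with the block, all higher (6 at an unadjusted limma p under 0.05). Ptgs2, the inducible cyclooxygenase and 1 of the 2, was at 6.92 to 53.8 TPM under flow and at 2.31 to 5.46 TPM in static cells (log2 fold change 2.11, standard error 0.37, limma adjusted p = 0.0493). Hbegf, a ligand of the EGF receptor, and Plaur, the urokinase receptor, were called with the block, with log2 fold changes of 1.58 (limma adjusted p = 0.0108) and 0.93 (limma adjusted p = 0.0365). Lists of stress genes were read in the same fit. Of 14 genes of the unfolded protein and amino acid response 5 were higher and 9 lower, with a median of -0.01, and of 10 heat shock genes 9 were higher, with a largest log2 fold change of 0.15. From either list 0 genes were called without or with the block, and 1 and 0 had an unadjusted limma p under 0.05.
Markers that could shift with the result were read from the same libraries. The 8 markers of epithelium summed to 71.1 to 294 TPM under flow and 67.0 to 139 TPM in static cells. Only Krt18, Krt19 and Cldn4 of them had a mean of at least 1 TPM in either group. Cldn4 was at 24.4 to 166 against 17.5 to 50 TPM and was called with the block. The 5 macrophage markers summed to 34.5 to 64.1 against 40.5 to 84.0 TPM, with Adgre1 at 0 in all 12, and the 4 endothelial markers to at most 1.45 TPM. Of the macrophage markers only Cd68 and Cd14 had a mean of at least 1 TPM. The 13 mitochondrial genes summed to 43976 to 74359 against 44283 to 96047 TPM. The part of any of these in the AP-1 values was not tested.

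Ift88 siRNA against control siRNA asked what loss of a cilium gene did to the same transcripts in cells under flow. Ift88 itself was at 1.71, 1.27, 1.28 and 0.917 TPM with its siRNA and at 4.21, 4.08, 4.15 and 4.12 TPM with control siRNA, and its log2 fold change of -1.17 had a standard error of 0.13 (limma adjusted p = 0.00212). All 10 members had a higher mean with Ift88 siRNA, but the differences were small, with log2 fold changes from 0.01 to 0.56 and a median of 0.16, against 0.017 over the 11209 genes tested, of which 6164 were higher. By the adjusted p and the 1.5-fold threshold 0 members were called, against 25 genes in all (0.223%). By the adjusted p alone 2 passed, Fos and Atf3, against 71 genes (0.633%), and 4 had an unadjusted limma p under 0.05, against 1561 genes. These 2 were also the members in which every Ift88 siRNA library lay above every control library, as 5.79% of all genes did.

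Atf3 was at 126, 103, 109.5 and 105 TPM with Ift88 siRNA and at 75.8, 76.8, 72.3 and 84.0 TPM with control siRNA. The highest control library was well below the lowest silenced one. Its log2 fold change was 0.51, with a standard error of 0.07 (limma adjusted p = 0.00922). With any 1 of the 8 libraries removed, the limma adjusted p stayed between 0.0118 and 0.0479, and it was 0.0637 with no filter on low values, where 19195 genes were tested.
Fos was at 11, 11.4, 12.5 and 10.2 TPM with Ift88 siRNA and at 7.94, 8.11, 6.55 and 6.87 TPM with control siRNA. In log2 terms this was 0.56, with a standard error of 0.11 (limma adjusted p = 0.0480). Its ratio of means was 1.53, but on the log2(TPM + 1) scale the change was just under 1.5-fold, and the limma adjusted p was 0.0547 to 0.148 with any 1 library removed and 0.108 with no filter.
Fosb was at 13.6, 13.8, 13.6 and 9.37 TPM against 7.77, 9.21, 10.1 and 11.4 TPM. Ift88 siRNA replicate 4 fell among the controls and the other 3 lay above them (log2 fold change 0.35, standard error 0.14, limma adjusted p = 0.295). Junb, with an unadjusted limma p under 0.05 as well, was at 2230.2, 2118, 2288 and 2308 TPM against 2102, 1948, 2179.7 and 1928 TPM, so that 1 control library stood above 1 silenced library (0.13, standard error 0.06, limma adjusted p = 0.344).
The other 6 members overlapped between the groups. Jun was at 75.9 to 109 against 72.0 to 87.5 TPM (limma adjusted p = 0.427), Batf3 at 6.49 to 8.97 against 4.81 to 9.71 TPM (0.602), and Fosl1 at 826 to 941 against 709 to 966 TPM (0.684). Fosl2 was at 128 to 179.5 against 135 to 146 TPM (limma adjusted p = 0.832), Jund at 37.9 to 50.6 against 31.8 to 52.9 TPM (0.877), and Maff at 48.5 to 65.8 against 48.3 to 64.5 TPM (0.970).

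**Figure D5:**
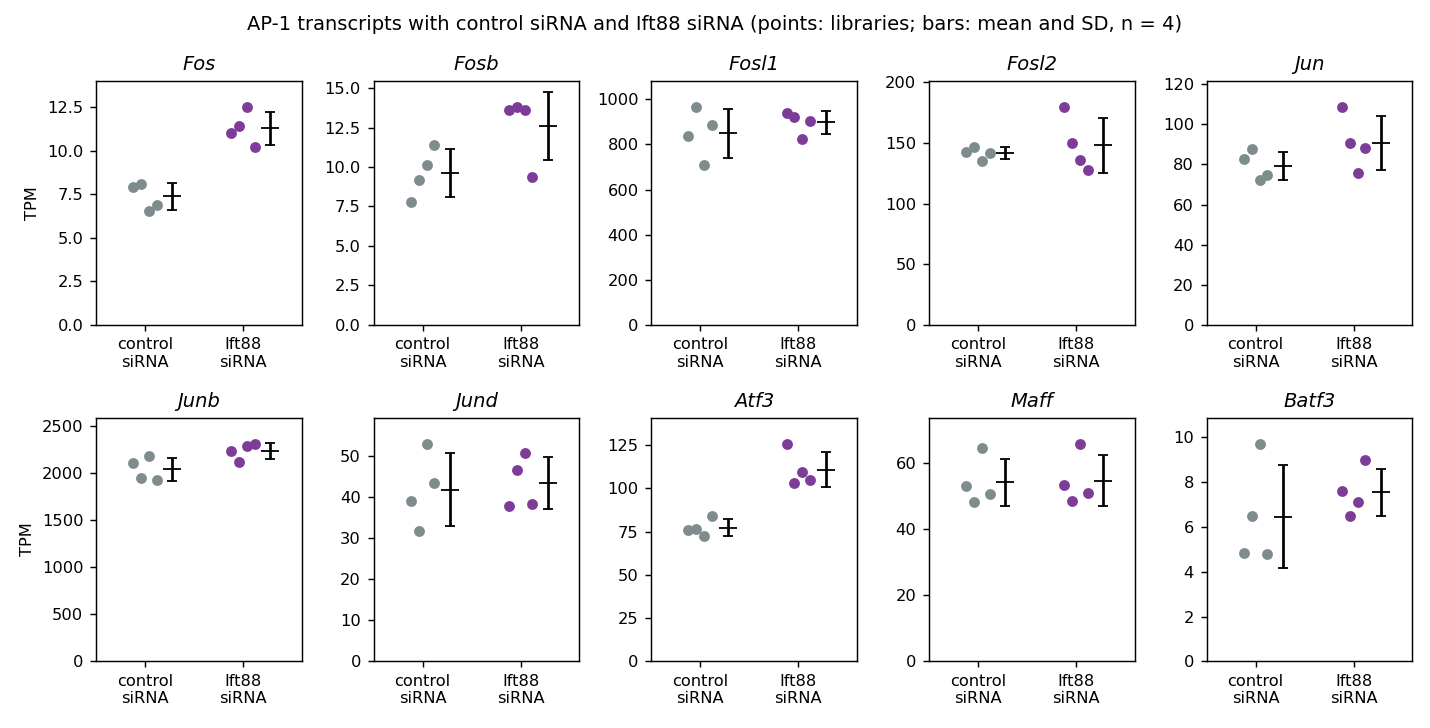
TPM of each AP-1 gene in the 4 control siRNA and 4 Ift88 siRNA libraries (points), with the mean and SD beside them, each axis starting at 0. The groups are apart for Fos and Atf3 and overlap for the other 8 genes.

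The same lists were read with Ift88 siRNA, where 1561 of the 11209 genes had an unadjusted limma p under 0.05. Of 17 AP-1 targets tested, 2 were higher and 15 lower with Ift88 siRNA, with a median log2 fold change of -0.17, 0 called and 7 at an unadjusted limma p under 0.05. Cd44, the hyaluronan receptor, was at 125 to 136 TPM against 155 to 168 TPM (log2 fold change -0.33, limma adjusted p = 0.0236), under 1.5-fold. Hmox1, Ccl2 and Ccnd1 were at -0.38, -0.24 and -0.17 on the log2 scale, with limma adjusted p of 0.0978 to 0.191. Of the 26 other bZIP genes, 14 were higher and 12 lower, 0 were called and 3 had an unadjusted limma p under 0.05, and of 37 genes of the MAP kinase route 15 were higher, 22 lower, 0 called and 6 under that p, with Srf at 16.4 to 24.0 against 9.59 to 13.6 TPM (0.61, limma adjusted p = 0.0739). Of 15 genes of the unfolded protein and amino acid response 10 were higher, with Sdf2l1 at 0.36 (limma adjusted p = 0.0811) and 0 called, 7 of them at an unadjusted limma p under 0.05. Of 10 heat shock genes 7 were higher, 0 were called and 3 were under that p. The 13 mitochondrial genes summed to 28530 to 32731 TPM with Ift88 siRNA and 31044 to 34774 TPM with control siRNA, with 0 called. Some were lower without overlap, such as mt-Nd1 (1951 to 2212.5 against 2426 to 2604 TPM). Others overlapped, such as mt-Co2 (1300 to 1534 against 1142 to 1587.5 TPM). Their part in the AP-1 values was not tested.

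The TPM of the siRNA libraries put the AP-1 transcripts in another order than those of the flow and static libraries. The 2 tables were made separately and the experiments differ in transfection, so these levels are set side by side without a test. With control siRNA the order was Junb (2039 ± 122 TPM, SD, n = 4), Fosl1 (849.6 ± 108), Fosl2 (141 ± 4.83), Jun (79.2 ± 7.14), Atf3 (77.2 ± 4.89), Maff (54.2 ± 7.18), Jund (41.8 ± 8.81), Fosb (9.60 ± 1.51), Fos (7.37 ± 0.775) and Batf3 (6.46 ± 2.30). Neighbouring ranges overlapped between Jun and Atf3, Maff and Jund, Fosb and Fos, and Fos and Batf3. With Ift88 siRNA, Atf3 stood above Jun, and the other places were the same. Jund, first by mean in static and flow cells at 298 to 544 TPM (Junb was above it in flow replicate 6), was at 31.8 to 52.9 TPM in the 8 siRNA libraries, 0.956% to 1.6% of the family's TPM. Junb, at 43.7 to 656 TPM in static and flow cells, was at 1928 to 2308 TPM, 58.5% to 65.8% of it. Fosl1 took 21.4% to 29.0%. The summed TPM was 3232 to 3352 with control siRNA and 3511 to 3709 with Ift88 siRNA. Cldn4 was also far apart between the experiments, at 2720 to 3179 TPM in the siRNA libraries, and so was Cd68, at 87.1 to 98.9 against 10.1 to 64.0 TPM, while Ptprc, the pan-leukocyte marker, was at no more than 0.0878 TPM in all 20 libraries. Mitochondrial transcripts differed unevenly too. In the siRNA libraries mt-Nd3 was at 78.3 to 134 TPM, against 2503 to 4651 TPM in flow and static cells. For mt-Cytb the values were 4583 to 5692 against 1537.5 to 4176 TPM. What sets the experiments apart, and whether their TPM can be compared gene by gene, was not tested.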

How the data were processed

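RNA-seq of mouse DC2 cells was read from 2 deposited tables of TPM, one per experiment. The authors made these TPM from poly(A)-selected directional libraries. Their methods name Trimmomatic, kallisto with the Ensembl transcriptome and tximport, and the submitters' processing notes name fastp 0.20.0, FastQC 0.11.8, MultiQC 1.8 and kallisto 0.46.2. The labels name no genome build, and the positions given here come from another, older annotation than the transcriptome behind the TPM. TPM are scaled to a total of 1000000 per library and are not counts, so no count test was run and counting error is unknown. Groups follow the sample titles, and the labels do not say whether replicates are separate cultures, so p-values measure only the spread between these libraries.

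Log2(TPM + 1) was fitted with limma 3.58.1 (R 4.3.3, eBayes with trend) for the genes whose mean reached 1 TPM, and p-values were adjusted by Benjamini-Hochberg over all of them. The scale understates the change of low genes. Same-numbered flow and static libraries deviated together over genes (correlations 0.294, 0.463, 0.425, 0.468, 0.662 and 0.600), so the number was taken to pair them. The scripts were checked on simulated data. Alternatives covered the filter, a pseudocount of 0.1, scaling, library weights, the block, libraries left out and the label of flow replicate 6.

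The members, gene lists and tests were chosen with earlier results of these data known. Besides all members, list genes were named as those called in either fit or as examples among the 4 with the smallest unadjusted p per list and comparison, and each member's most similar gene by correlation. The values of 1 gene are left out. Positions are from GENCODE M21 on GRCm38 and promoter windows from RefSeq, and overlapping genes can share reads. Protein sequences were not used here.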

Additional observations from a re-analysis of the deposited data

Results flagged for a closer look

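In each of the 40 combinations of a member and a group, the highest and lowest library were compared with the rest by Dixon's ratio of gap to range, which flags about 1 in 20 groups by chance, and 2 were past its critical value. Fosb was at 4.2 TPM in static replicate 5, with the next highest static library at 0.980 TPM, a gap of 0.932 of the range. Fosb was at 9.37 TPM in Ift88 siRNA replicate 4, with the next lowest library of that group at 13.6 TPM, a gap of 0.958 of the range. The cause was not tested in either case.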

How the results depend on the processing

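In flow against static, 0 AP-1 members and 12 genes were called. The members called were 2 with median-of-ratios scaling, 5 with library weights, 5 with the replicate block, 2 within replicates 1 to 3 and 6 within replicates 4 to 6. The genes called were 2 with no filter on low TPM, 28 with median-of-ratios scaling, 86 with library weights, 68 with the replicate block, 0 with flow replicate 6 counted as static (181 at an unadjusted limma p under 0.05), 5 within replicates 1 to 3 and 56 within replicates 4 to 6. With 1 library left out, 0 to 5 members and 5 to 87 genes were called, the highest numbers without flow replicate 2 and the lowest number of genes without flow replicate 4. With the replicate block and 1 pair left out, the members called were 0 without pair 1 and 8, 4, 3, 2 and 3 without pairs 2 to 6, and the genes called were 8 without pair 1 and 193, 51, 38, 34 and 41 without pairs 2 to 6. Batf3 went from -0.11 to 0.00 with flow replicate 6 counted as static.
In Ift88 siRNA against control siRNA, 0 members and 25 genes were called. The members were 1 (Fos) with a pseudocount of 0.1 TPM, where the limma adjusted p was 0.0473, and 2 with no fold change threshold, and 0 in each fit with 1 library left out. The genes called were 6 with no filter, 48 with library weights, 71 with no fold change threshold and 11 to 23 with 1 library left out. Replicate numbers did not pair these libraries (correlations from 0.00276 to 0.259, with 4 of 8 libraries closest to their own number), and with the replicate block 44 genes and 0 members were called, and from the MAP kinase list Srf (limma adjusted p = 0.0238). Signs turned for Maff at -0.01 with median-of-ratios scaling, and in some of the fits with 1 library left out for Fosl2 (-0.04 to 0.12), Jund (-0.05 to 0.18) and Maff (-0.08 to 0.10).
Of the members' other values under the alternatives, 336 kept both direction and side of the threshold and 46 passed it newly. TPM hold no depth, so a low level such as Fos in static cells has an unknown counting error.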
